A study of Drosophila melanogaster with 312 samples.

Results

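The genes described here are those of the fourth chromosome of Drosophila melanogaster, the smallest autosome of the fly. They were chosen as the genes that the deposited normalized table places on arm 4, with bt and RpS3A left out, which gives 91 of the 13212 genes in that table. By that table's own classes, 76 are protein coding, 13 are non-coding RNA genes and 2 are pseudogenes. BDGP6.54, which annotates the study's genome release but is of later date, gave the positions and overlaps. The comparison set is the other autosomes, the 11001 genes of arms 2L, 2R, 3L and 3R, and the X chromosome holds 2089 genes.

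The fourth chromosome is packaged largely as heterochromatin, yet most of its genes are expressed. Its chromatin carries heterochromatin protein 1 (HP1) and histone H3 methylated at lysine 9, which on this chromosome is laid down mainly by the enzyme encoded by egg. The chromosome-specific protein encoded by Pof binds nascent transcripts of the chromosome and supports their output. The chromosome is rich in transposable element remnants and recombines very little, so its genes are inherited nearly as a block.

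The flies were whole virgin males and whole virgin females of 6 populations derived from one outbred population, the Sleep Advanced Intercross Population, itself founded by crossing 10 inbred lines of the Drosophila Genetic Reference Panel. Populations short 1 and short 2 were selected for short night sleep, long 1 and long 2 for long night sleep, and control 1 and control 2 were not selected, and each was passed on through 25 parents of each sex. At generation 0 and at each of generations 2 to 13, males and females of every population were frozen at the same hour in 2 pools of 10, which makes 26 libraries of each sex per population and 12 of each sex per generation. Males and females of a population and generation came from the same bottle, and all pools of a population share its history, so the p-values given here measure the spread between libraries and not between independent populations. Because whole flies were extracted, fewer cells of a type and less RNA per cell cannot be told apart.

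Depth, as the sum of counts over genes, had a median of 41317004 and ranged from 31539064 to 109389826. Paired pools were separate libraries, since their counts departed from counting error with a chi-square of at least 6.91 per degree of freedom in every pair. Marker genes of the other sex were raised in 4 libraries. Of these, 3 male libraries (long 1 generation 8 pool 2, short 2 generation 0 pool 2 and short 2 generation 2 pool 1) held 29750 to 589900 normalized counts on 20 female germline and eggshell genes, against a median of 3270 in the other males, and 1 female library (control 2 generation 2 pool 1) held 5493 on 14 testis genes, against 104 to 533 in the other females. One more male library, short 1 generation 5 pool 2, held 234000 normalized counts on the yolk protein genes Yp1, Yp2 and Yp3, against at most 2999 in other males, with the rest of that list at 1737. Pool numbers are those of the sample titles, which the data tables also use, and another label of some libraries numbers them differently. Where such a library moves a printed limit or count by over 1.5 times, the value without these libraries is given too.

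Genes of the fourth chromosome are long and hold many transposable elements. Their median exon length was 3720 bases, against 1680 bases on the other autosomes, and their median span was 9095 bases, against 2088 bases. An annotated transposable element lay within 71 of the 91 genes, against 693 of 10863 (6.38%) of genes on the other autosomes, or 3.80 against 0.267 elements per 10 kb of gene. Their level per length was nonetheless close to that of the other autosomes in males, where the median normalized count per kb of exon was 529 on the fourth chromosome and 545 on the other autosomes. In females it was 453 on the fourth chromosome and 792 on the other autosomes. The 91 genes took 0.747% of the counts in the median male library (0.597% to 0.969%) and 0.954% in the median female library (0.711% to 1.11%).

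The first comparison asks how the 2 sexes differ. The log2 fold changes that follow are of males over females, so that a positive value means higher in males. Of the 91 genes, 90 passed the study's cutoff on low values in at least 1 library of either sex. The cutoff was applied to the deposited normalized counts, and it is not certain that the study set it on this scale, so the genes tested here may not be those the study tested. CR32010, a pseudogene, did not pass, with a highest normalized count of 42.1 in males and 84.4 in females. At an adjusted p under 0.001, 89 of the 90 were called between males and females, where 98.3% of all genes were, so nearly every gene of the fly differed. Of the 89 genes, 50 were higher in males and 39 were higher in females. At least 2-fold differences were found for 37 genes higher in males (41.1%, against 52.8% of all genes) and 19 genes higher in females (21.1%, against 23.1% of all genes).

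The fourth chromosome held 5 genes with very large sex differences. At least 8-fold higher levels in males were seen for 5 members, or 5.56%, against 25.5% of the genes tested on the other autosomes. No member was 8-fold higher in females, against 3.85% on the other autosomes. All 5 members passed the cutoff in males alone, the sex in which they were high. Among genes past the cutoff in both sexes, 0 of 81 members were at least 8-fold higher in males and 0 of 81 in females, against 8.39% and 5.00% of 8202 genes on the other autosomes. The median log2 fold change was 0.64 on the fourth chromosome (quartiles -0.71 and 2.07), 1.27 on the other autosomes (quartiles -0.83 and 3.22) and 0.06 on the X. The fourth chromosome minus the other autosomes gave -0.62, and the same difference taken from mean log2 levels within each of the 6 populations was between -0.62 and -0.77. The difference of the medians turned round when only genes past the cutoff in both sexes were counted, a restriction added after the values were seen. The median was then 0.19 over 81 genes of the fourth chromosome and 0.00 over 8202 genes of the other autosomes. Among genes with exons at least as long as the fourth chromosome median, it was 0.19 over 46 members and -0.07 over 1696 genes. On the fourth chromosome 81 of 90 genes tested passed in both sexes, and on the other autosomes 8202 of 10983 did. With TMM scaling the median of all genes moved by -0.41, and the fourth chromosome and the other autosomes moved with it to 0.23 and 0.85.

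**Figure D1:**
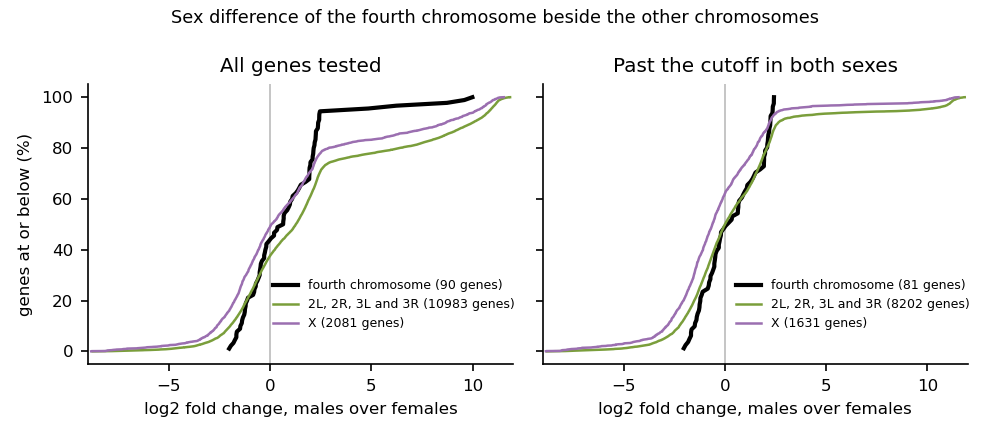
Cumulative share of genes (%, vertical axis) by log2 fold change of males over females (horizontal axis) for the fourth chromosome (black), arms 2L, 2R, 3L and 3R (green) and the X (purple), over all genes tested (left) and over genes past the cutoff in both sexes (right). In the left panel the black curve ends with 5 genes beyond 8-fold, while the green curve has a long upper tail; in the right panel the medians are 0.19 for the fourth chromosome and 0.00 for the other autosomes.

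JYalpha (FBgn0267363, chromosome 4 from 879 to 5039, plus strand) encodes a sodium/potassium ATPase subunit that sperm need. Its normalized counts were 419, 2162 and 3329 (lowest, median, highest) in males, against 0, 2.03 and 101 in females. The ranges do not overlap, and both values nearest to the other sex belong to libraries with RNA of the other sex, since without those libraries the males began at 1490 and the females ended at 13.1. The log2 fold change was 9.59 (SE 0.083, adjusted p = 1.1e-247) and 9.88 without them.

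A short non-coding RNA, CR43437 (FBgn0263385, 426067 to 426601, plus strand), differed most. It had 121, 375 and 973 normalized counts in males (lowest, median, highest), against 0, 0 and 10.3 in females, with 51 raw counts in all female libraries together. Without the libraries with RNA of the other sex the males began at 226 and the females ended at 2.28. Its log2 fold change was 9.99 (SE 0.076, adjusted p = 1.9e-262). CR44027, annotated as antisense to dati, had a log2 fold change of 8.73 and the non-coding CR45199 one of 6.23. CG32006 is the protein-coding gene that came next. It had 145, 574 and 1106 normalized counts in males and 5.93, 19.1 and 51.4 in females (lowest, median, highest), a log2 fold change of 4.85 (SE 0.046), and without those libraries the males began at 218 and the females ended at 44.3. All 5 genes stood apart between the sexes in every library. The next largest difference was 2.46, for CR44031.

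Including these 5, the ranges of males and females did not overlap for 6 of the 90 genes, where 27.0% of all genes did not overlap. The sixth was Actbeta, an activin ligand of the TGF-beta family, with 243, 737 and 1110 normalized counts in males against 58.0, 140 and 236 in females. Without the 4 libraries that held RNA of the other sex its lowest male was at 404. Without them, 34 of the 90 genes did not overlap (37.8%), 23 of them with males above and 11 with females above, where 56.2% of all genes did not.

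The largest differences in favour of females were smaller. Mitf (FBgn0263112, 1198852 to 1224467, plus strand), a transcription factor of lysosomal genes, had 1861, 2533 and 8467 normalized counts in males, against 6677, 10793 and 14873 in females. The male library with the highest value was one with RNA of the other sex, and the other males ended at 3671, below every female. The log2 fold change was -2.03 (SE 0.023, adjusted p = 4e-212). CG11076 followed with -1.94, and CG11148 (Gyf), a regulator of translation, with -1.81. PlexB, a semaphorin receptor, had -1.75, and gw (gawky, the GW182 protein of microRNA silencing) -1.67.

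Of all genes called between the sexes, 62.5% were higher in males, and the role lists are given beside that share. Of 10 synapse genes, 8 were higher in males, 7 of them at least 2-fold, 1 was higher in females and 1 was not called, with a median log2 fold change of 2.17. Syt7, a synaptotagmin of vesicle release, stood at 2.43 and Cadps, which primes dense core vesicles, at 2.25. Gat, a transporter of the transmitter GABA, stood at 2.24, with 197, 603 and 1398 normalized counts in males against 42.5, 126 and 290 in females. Without the libraries with RNA of the other sex the males of Gat began at 334, above every female. Ank, an ankyrin, was the 1 gene of the list higher in females, at -0.46. For unc-13, which primes synaptic vesicles, the value was 0.04 (SE 0.017, adjusted p = 0.038), and it was -0.38 with TMM scaling and -0.03 with total counts as library size. With TMM scaling 7 synapse genes were called higher in males and 2 higher in females, against a shift of all genes of -0.41.

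Of 18 transcription factors and cofactors, 11 were higher in males (61.1%, close to the 62.5% of all genes called) and 7 were higher in females, with a median of 1.13. The Pax genes ey and toy, which start eye development, stood at 2.13 and 2.09, the Pax2 gene sv at 2.15 and the homeobox gene zfh2 at 2.12. For ey the normalized counts were 161, 452 and 643 in males, against 49.2, 102.3 and 173 in females. Without the libraries with RNA of the other sex the males of ey began at 285, above every female. The effectors of Hedgehog and Wnt signalling, ci and pan, were at 0.99 and 0.84, and Sox102F at 1.26. Among those higher in females, MED26, a Mediator subunit, was at -1.49, bip2 (Taf3), a subunit of the general factor TFIID, at -1.47, Hcf, a chromatin cofactor, at -1.21 and pho, a DNA-binding Polycomb group protein, at -1.14.

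Of 10 signalling genes, 3 were higher in males and 7 in females, with a median of -0.67. PlexA, a second semaphorin receptor, stood at -1.67. The TGF-beta ligands differed among themselves, with mav at -1.35, myo at -0.30 and Actbeta at 2.36. The receptor Eph and its ligand Ephrin stood at -0.71 and -1.21, and the adaptor Crk at -0.63. The glutamate receptor mGluR, which is in both this list and the synapse list, was at 0.34 and turned to -0.08 with TMM scaling.

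Of 19 housekeeping and metabolic genes, 6 were higher in males and 13 were higher in females, 5 of the 13 at least 2-fold, with a median of -0.41. Rad23, a protein of DNA repair and protein turnover, was at -1.39 and the translation factor eIF4G at -1.24. ATPsynbeta, the beta subunit of mitochondrial ATP synthase, was close between the sexes at -0.30, with 25999, 41944 and 72079 normalized counts in males against 33744, 52338 and 69103 in females. ND-49 of respiratory complex I was at 0.71. Rfabg (apolpp), the main lipid carrier of the blood, was at 1.11. The gene overlaps Zyx on the other strand, and 39 of the 91 genes overlap a gene on the other strand in this annotation, so for them reads of both strands may have been joined, as the strand setting of the counting is not given in the sources used here. The 14 non-coding and pseudogene members tested had 11 higher in males and 3 higher in females. Of all genes called, 62.5% were higher in males. Only 7 of the 14 passed the cutoff in females, among them all 3 that were higher in females. The rest entered through males alone, the sex in which they were higher, so the split follows in part from the cutoff.

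**Figure D2:**
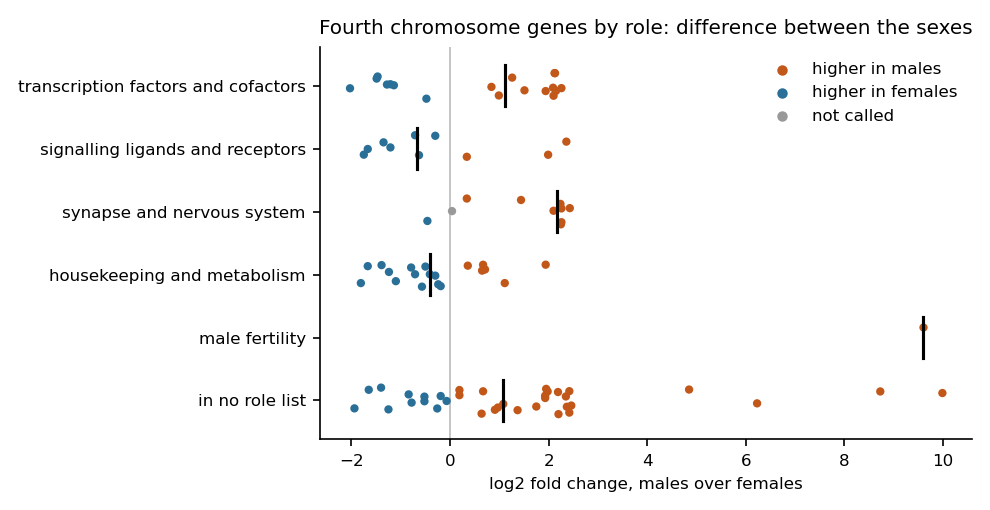
Log2 fold change of males over females (horizontal axis) of the 90 genes of the fourth chromosome tested, by role list (vertical axis; 3 genes are in 2 lists), with genes higher in males in orange, higher in females in blue and not called in grey, and the median of each list as a black bar. Synapse genes lie mostly near 2, housekeeping and signalling genes mostly below 0, and JYalpha and 4 genes of no list lie far to the right.

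Of the 8 listed chromatin proteins that act on this chromosome and are encoded elsewhere, Pof was the 1 gene higher in males. It had 5139, 21950 and 28520 normalized counts in males, against 1588, 2573 and 3650 in females, and the lowest male was at 13414 without the libraries named above (log2 fold change 3.05, SE 0.024, adjusted p = 1.9e-259). The other 7 were higher in females, and their values ran between -1.83 for the gene of HP1 and -3.58 for Su(var)3-7, an HP1 partner. For egg the value was -2.37 and for its cofactor wde -2.19. Female germline genes and testis genes separate the sexes completely apart from the libraries named above, and the part of the gonads in these differences was not tested.

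The second comparison asks how far the 6 populations stood apart, averaged over generations, in each sex by itself. The spread was small and no larger than on the other autosomes. In males 54 of 90 members were called between populations, where 55.1% of all genes were. In females 45 of 81 were called, where 64.7% of all genes were. The median SD of the 6 population means on the log2 scale was 0.083 in males (0.098 on the other autosomes) and 0.083 in females (0.089 on the other autosomes). The median residual SD between libraries, with population and generation means taken out, was larger. It was 0.181 in males and 0.197 in females on the fourth chromosome, against 0.222 in males and 0.162 in females on the other autosomes. Without short 1 the count in males was 28, and without long 1 the count in females was 28. These fits also hold fewer libraries, and the share of all genes called in them is not given here. The lower counts can therefore not be credited to that population alone.

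In males, most genes of the fourth chromosome were lowest in population short 1. This held for 65 of the 90 genes (72.2%), against 24.3% of genes on the other autosomes, and no member was highest there. The deviation was small for each gene, with a median of -0.10 log2 units in short 1. In females, 21 of 81 genes were lowest in short 1 (25.9%), against 24.4% on the other autosomes. The male pattern was seen after the values were known and is given as a description. Short 1 males were furthest below the rest at generations 5 and 8. Without these 2 generations, 49 genes were lowest in short 1 (54.4%, against 23.5% on the other autosomes). Without the libraries named above for RNA of the other sex or of yolk proteins it was 57 genes (63.3%, against 23.5%). In early and late generations taken apart, it was 37 genes in generations 0 to 6 (41.1%, against 17.8%) and 57 in generations 7 to 13 (63.3%, against 25.6%), and in females 6 genes in generations 0 to 6 (7.4%, against 11.7%) and 27 in generations 7 to 13 (33.3%, against 23.0%). Long 1 was highest for 34 of the 90 genes in males (37.8%, against 20.2% on the other autosomes) and for 31 of 81 in females (38.3%, against 29.8%).

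**Figure D3:**
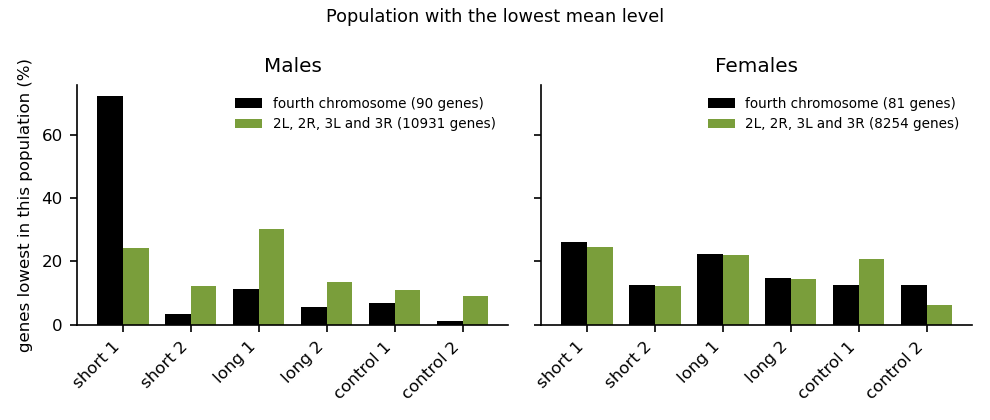
Share of genes (%, vertical axis) whose mean log2 level was lowest in each of the 6 populations (horizontal axis), in males (left) and females (right), for the fourth chromosome (black) and arms 2L, 2R, 3L and 3R (green). The black bar of short 1 in males reaches 72.2%, against 24.3% for the green bar beside it, and the same bars in females are 25.9% and 24.4%.

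Replicate numbers also lined up. In males all 3 populations numbered 1 lay below all 3 numbered 2 for 25 of the 90 genes (27.8%, where 13.4% of all genes did), and the reverse held for 0 genes (7.09% of all genes). In females the first held for 12 of 81 genes (14.8%, where 9.83% of all genes did) and the reverse for 5 genes (5.97% of all genes). Early and late generations differed, in opposite directions in the sexes, and this change was not tested. In males the first held for 12 of 90 genes in generations 0 to 6 (13.3%, against 13.7% on the other autosomes) and for 29 of 90 in generations 7 to 13 (32.2%, against 12.2%). In females it held for 22 of 81 genes in generations 0 to 6 (27.2%, against 16.8%) and for 6 of 81 in generations 7 to 13 (7.4%, against 16.1%). Selection scheme and replicate number are separate labels, so this split crosses the schemes, and it too was noticed after the values were seen.

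One gene stood far outside the others. CR44030 (FBgn0264822, 959675 to 962692, plus strand) is a non-coding RNA annotated as antisense to fuss, so reads of the 2 genes may not be fully separate. The SD of its 6 population means was 1.60 log2 units in males (adjusted p = 3.5e-31) and 1.21 in females (adjusted p = 1.8e-24). In females every library of long 1 (at most 63.1) and control 1 (at most 23.8, median 7.08) lay below the study's cutoff on low values. The gene thus entered the female test through the other populations, in which it was higher. The next widest were sphinx in males with 0.42 and dpr7 in females with 0.51. In short 1 males the lowest, median and highest normalized counts of 26 libraries were 15.9, 93.1 and 358, and in short 2 males 52.4, 197 and 351. In long 1 males they were 3.49, 27.3 and 170, and in long 2 males 17.4, 187 and 499. In control 1 males they were 2.09, 8.13 and 54.3, and in control 2 males 9.39, 149 and 333. By their medians the 3 replicate 2 populations were the highest and control 1 the lowest, in both sexes, though the ranges of the populations overlap.

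The order of the populations in CR44030 moved over time. At generation 0 the pool means in males were 28.4 in short 1, 294 in short 2, 54.7 in long 1, 241 in long 2, 49.8 in control 1 and 303 in control 2. At generation 2, control 1 was at 10.3 and short 1 at 101.5. At generation 12 short 1 was at 96.8 and short 2 at 150, above long 1 at 9.66, long 2 at 19.1, control 1 at 9.45 and control 2 at 23.2. Both short populations were also the highest at generation 11, and at generation 13 short 2 was at 298, long 2 at 112 and short 1 at 75.3. In females both short populations were the highest at generations 11 to 13, with 55.9 in short 1 and 57.4 in short 2 at generation 13, against 31.7 in long 2, 28.2 in long 1, 26.6 in control 2 and 6.01 in control 1. This late order was noticed after the values were seen. In the test of slopes given at the end, the added slopes of CR44030 in males were 0.21 (SE 0.061) in short 1, 0.17 (SE 0.053) in short 2, 0.095 (SE 0.064) in long 1 and -0.008 (SE 0.066) in long 2, in log2 units a generation. Its adjusted p was 0.0057 in males and 0.0018 in females in edgeR's quasi-likelihood test, which missed the threshold of 0.001.

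**Figure D4:**
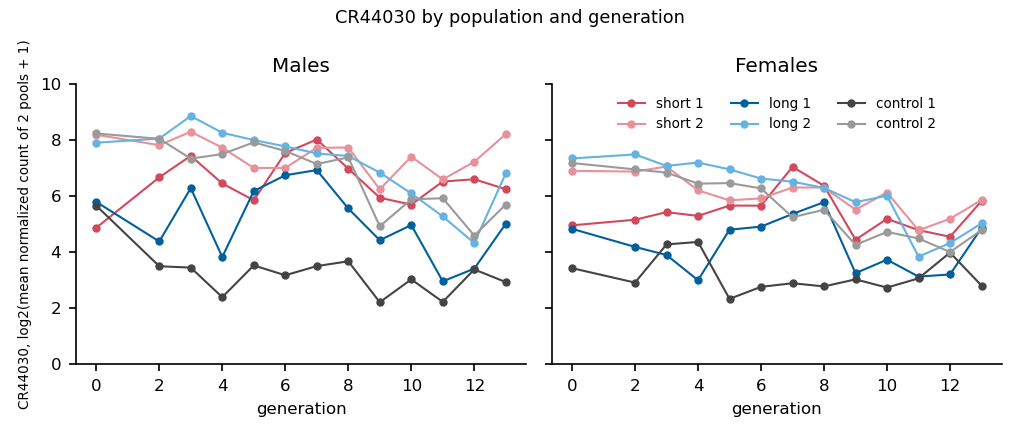
CR44030 in males (left) and females (right), as log2 of the mean normalized count of 2 pools plus 1 (vertical axis) by generation (horizontal axis), 1 line for each population (short in red, long in blue, control in grey, replicate 1 dark and replicate 2 light). Control 1 lies lowest in most generations, and the replicate 2 lines start highest, with long 2 and control 2 low by generation 12.

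Other genes with a wide spread were also partly non-coding. The non-coding RNA sphinx, known from male courtship, overlaps fuss on the other strand. Its medians in males were 80.6 in short 1, 118 in short 2, 54.8 in long 1, 85.1 in long 2, 52.3 in control 1 and 92.0 in control 2 (adjusted p = 4.1e-13). CR44024 and yellow-h, a gene of the Yellow family, had SDs of 0.36 and 0.25 in males and were highest in long 2.

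In females, dpr7, fd102C and RhoGAP102A were all highest in long 2. For dpr7, a cell surface protein of the immunoglobulin family, the lowest, median and highest normalized counts were 124, 454 and 1005 in long 2 females and 121, 296 and 785 in control 2 females. The medians in the other 4 populations lay between 179 in long 1 and 183 in short 1, with short 2 at 180 and a highest value of 684 (SD of means 0.51, adjusted p = 4.3e-19). The high values of short 2 were early, with 573 at generation 0 and 149 at generation 5. The forkhead gene fd102C had a median of 63.7 in long 2 females, against 22.9 in short 1 females (SD of means 0.49, adjusted p = 1e-26). Its median over all female libraries was 34.2, below the study's cutoff on low values. It passed that cutoff in females through long 2, with a highest library of 141, and barely through long 1, with 103. The other populations stayed below the cutoff, with at most 74.3 in control 2. The gene thus entered the female test mainly through the population in which it was highest. RhoGAP102A had medians of 433 in long 2 and 210 in long 1 (SD of means 0.41). In males these genes varied less, with SDs of 0.11 for dpr7, 0.05 for fd102C and 0.08 for RhoGAP102A. A test of the difference between the sexes in population means, run over genes that passed in both sexes, called 16 of 81 members, these 3 among them, where 30.4% of all genes were called.

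The third comparison asks how levels moved over the generations, in all populations together. Nearly every member moved. In males 88 of 90 were called over generations, where 86.3% of all genes were, and gw and sphinx were not. In females 79 of 81 were called, where 92.5% of all genes were, and CG31999 and RhoGAP102A were not. The median range between the highest and lowest generation mean was 0.72 log2 units in males (0.62 on the other autosomes) and 0.67 in females (0.63 on the other autosomes). Each generation was collected at its own time, so generation and day of collection cannot be told apart.

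The course of the members as a group was then described. For each library the median deviation of members from their own mean was set against that of the other autosomes. In males this difference was 0.07 at generation 0, 0.16 at generation 2, 0.11 at generation 3 and -0.22 at generation 4. It stayed low at generations 5 and 6 with -0.16 each, stood at 0.08 at generation 7 and -0.15 at generation 8, and was highest, 0.30, at generation 13. In females it was -0.04 at generation 0, 0.16 at generation 2 and -0.12 at generation 4, and 0.19 at generation 13. All 12 libraries of each sex were above 0 at generation 2 and at generation 13, and none of the 12 was at generation 4, in short, long and control populations alike. The SD over the 12 libraries was 0.07 in males and 0.04 in females at generation 13.

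**Figure D5:**
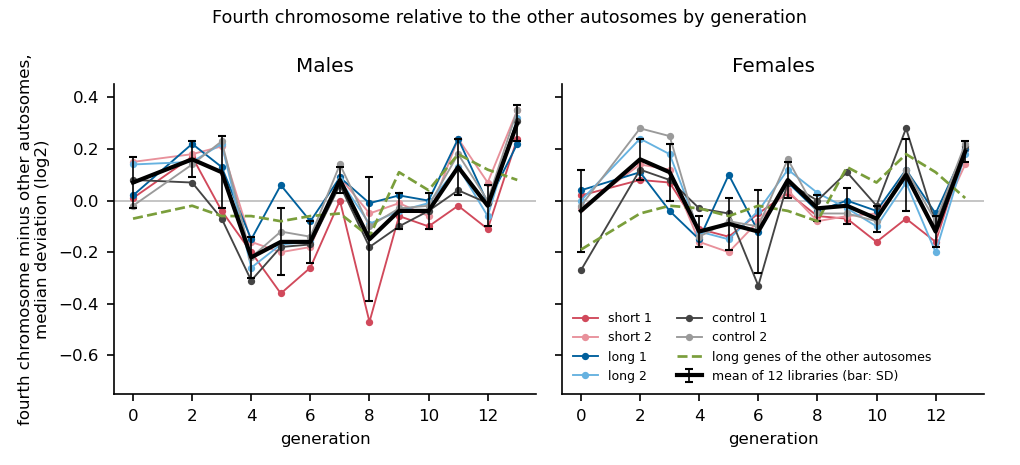
Median deviation of genes of the fourth chromosome minus that of arms 2L, 2R, 3L and 3R (log2, vertical axis) by generation (horizontal axis) in males (left) and females (right), for the 6 populations (thin lines), their mean with the SD of 12 libraries (black) and genes of the other autosomes with exons of at least 3720 bases (dashed green). The black line is high at generations 2 and 13 and low at generation 4 in both panels, while short 1 males lie furthest below at generation 8.

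Counted by gene, 84 of 90 members were above their own mean at generation 13 in males (93.3%, against 54.4% on the other autosomes) and 70 of 81 in females (86.4%, against 49.4%). At generation 4 it was 3 of 90 in males (3.33%, against 48.4%) and 10 of 81 in females (12.3%, against 42.6%). Generation 13 was the highest of all for 48 of 90 members in males (53.3%, against 8.19% on the other autosomes) and for 26 of 81 in females (32.1%, against 8.37%). By role in males these were 11 of 18 transcription factors, 5 of 10 signalling genes, 6 of 10 synapse genes and 12 of 19 housekeeping genes, and JYalpha was not among them. Long genes of the other autosomes shared the course at some generations and not at others. In males their difference was -0.02 at generation 2, -0.06 at generation 4 and 0.08 at generation 13, over 1809 genes. At generation 8 it was -0.14, against -0.15 for the members. Its highest value was 0.18 at generation 11, against 0.13 for the members. The part of exon length in the course was not tested. The X chromosome stayed within 0.06 of the other autosomes in both sexes. The median depth in males was 40745334.5 counts at generation 2 and 39167833 at generation 13, where the members were high, and 42081138.5 at generation 4, 34649740.5 at generation 5 and 50801951 at generation 8, where they were low. The part of depth in the course was not tested.

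A step pattern was seen in many members after their values were known. Generations 0, 2, 3, 7 and 13 all lay above generations 4, 5, 6 and 8 for 58 of 90 members in males (64.4%, where 12.6% of all genes did) and the reverse held for 0 members (4.27% of all genes). In females it was 20 of 81 members (24.7%, where 2.26% of all genes did), and the reverse again held for 0 members (1.16% of all genes). Among the members with this pattern the ranges of generation means were widest for CG32017, CG11360 and mGluR in males, and for CG32017, Gat and pncr013:4 in females, where mGluR did not have it.

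CG32017 (FBgn0052017, 1137830 to 1162158, minus strand), which overlaps Kif3C and CG11155, is an example. In males its lowest, median and highest normalized counts over 12 libraries were 2059, 2803 and 3603 at generation 2, 503, 753 and 980 at generation 4, 2060, 2346 and 2556 at generation 7, 492, 755 and 1219 at generation 8 and 2407, 2680 and 3285 at generation 13. The libraries of generations 2 and 4 do not overlap, nor do those of generations 7 and 8 or 8 and 13. The range of generation means was 1.91 log2 units in males (adjusted p = 7.4e-57) and 1.64 in females (adjusted p = 8.6e-36), where the medians were 698 at generation 2, 223 at generation 4 and 573 at generation 13.

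CG11360 and mGluR had ranges of 1.83 and 1.75 in males, against 0.65 and 0.89 in females. For mGluR the male medians were 516 at generation 2, 157 at generation 4, 402 at generation 7, 176 at generation 8 and 482 at generation 13. In females the mGluR medians at these generations were 297, 155, 260, 233 and 244. The pan gene, of Wnt signalling, ended highest in males, at a median of 3715 at generation 13, against 1557 at generation 4.

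Other members had their highest and lowest levels at other generations. ATPsynbeta was lowest at generation 12 in both sexes, with male medians of 55286 at generation 7, 30248 at generation 12 and 38095 at generation 13, and female medians of 66898 at generation 3, 35913 at generation 12 and 49030 at generation 13. ND-49, which serves the same respiratory chain, was also lowest at generation 12 in both sexes. For mav, the male medians were 2081 at generation 2, 3982 at generation 9, 3855 at generation 12 and 2538 at generation 13. In females the forkhead gene fd102C had medians of 26.7 at generation 0, 62.2 at generation 12 and 39.1 at generation 13, all below the cutoff on low values. CR45126, annotated as antisense to bip2, had a range of 1.79 log2 units in females and 0.94 in males, with female medians of 396 at generation 3, 97.1 at generation 12 and 222 at generation 13.

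Of the 81 members tested in both sexes, 33 had their highest generation in common (40.7%, against 34.6% on the other autosomes). The test of a difference between the sexes in generation course called 30 of the 81 members, where 36.5% of all genes were called. CG32017, CG11360, mGluR and CR45126 were among them. Among the chromatin proteins, 5 of 8 were called over generations in males, where 86.3% of all genes were. In females 7 of these 8 were called, where 92.5% of all genes were. The gene of HP1 was highest at generation 13 in both sexes, with ranges of 0.45 in males and 0.61 in females. Pof was highest at generation 0 in both sexes, with ranges of 0.60 in males and 0.47 in females.

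The last comparison is that of the selection experiment itself, and asks whether the slope of expression on generation in the short and long populations departed from the slope shared with the controls. Few members did. In males 2 of 90 were called (CR43361 and sphinx), where 5.89% of all genes were, and in females 5 of 81 (fuss, CG31999, gw, dpr7 and Slip1), where 9.92% of all genes were. At an unadjusted p under 0.05 there were 9 of 90 members in males (10.0%, against 26.5% on the other autosomes) and 39 of 81 in females (48.1%, against 62.1%).

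CR43361 (FBgn0263093, 905179 to 907924, plus strand) is a pseudogene that lies within unc-13 on the other strand. In males its 2 pools of generation 0 had 503 and 610 normalized counts in short 1, 706 and 624 in short 2, 624.9 and 683 in long 1, 729 and 936 in long 2, 554 and 377 in control 1 and 719 and 624 in control 2. At generation 13 they had 769 and 717 in short 1, 1065 and 1076 in short 2, 603 and 608.6 in long 1, 850 and 979 in long 2, 1174 and 1027 in control 1 and 977 and 1010 in control 2. The controls were higher at the end and long 1 was not. The shared slope was 0.061 log2 units per generation (SE 0.0088), and the added slopes were -0.048 (SE 0.015) in short 1, 0.0012 (SE 0.015) in short 2, -0.080 (SE 0.015) in long 1 and -0.027 (SE 0.015) in long 2 (adjusted p = 5.1e-05). The replicates of a scheme therefore did not move alike. For sphinx the added slopes were 0.082 (SE 0.028) in short 2 and -0.060 (SE 0.029) in long 2, with 0.0094 (SE 0.030) in short 1 and 0.083 (SE 0.030) in long 1 (adjusted p = 0.00081).

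In females, fuss (FBgn0039932, 962341 to 978489, minus strand), of the Ski and Sno family of transcription cofactors, was the 1 called member whose added slopes were negative in both short populations and positive in both long ones, signs shared by mav and ATPsynbeta, which were not called. In short 1 females it had 415 and 394 normalized counts at generation 0 and 405 and 319 at generation 13. In short 2 females it had 342 and 372 at generation 0 and 188 and 189 at generation 13. In long 1 females it had 344 and 373 at generation 0 and 785 and 693 at generation 13, and in long 2 females 336 and 337 at generation 0 and 497 and 515 at generation 13. In control 2 females it had 329 and 273 at generation 0 and 486 and 617 at generation 13, and in control 1 females 327 and 529 at generation 0 and 362 and 397 at generation 13. The pools of short 2 and of both long populations thus parted by generation 13, and control 2 moved the same way as the long populations. Its added slopes were -0.032 (SE 0.021) in short 1, -0.073 (SE 0.021) in short 2, 0.075 (SE 0.021) in long 1 and 0.034 (SE 0.021) in long 2 (adjusted p = 2.8e-06). In males the adjusted p of fuss was 0.75, and the slopes differed between the sexes (adjusted p = 9.4e-05).

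CG31999, which overlaps a gene on the other strand, ended low in short 2 females, with 1213 and 1294 normalized counts at generation 0 and 576 and 720 at generation 13. Its added slopes were -0.037 in short 1, -0.052 in short 2, 0.027 in long 1 and -0.048 in long 2 (SE 0.015 each), and it too differed between the sexes (adjusted p = 0.00058). The added slope of dpr7 was -0.12 (SE 0.030) in short 2, 0.027 (SE 0.031) in short 1, 0.029 (SE 0.031) in long 1 and -0.039 (SE 0.032) in long 2. The added slopes of gw and Slip1 had opposite signs in long 1 and long 2. For gw they were -0.021 (SE 0.0096) in long 1 and 0.021 (SE 0.0098) in long 2, and for Slip1 -0.031 (SE 0.012) in long 1 and 0.019 (SE 0.012) in long 2. The test of a sex difference in slopes called fuss and CG31999 alone of 81 members, where 7.76% of all genes were called.

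These counts changed with the populations included and with what was taken as the replicate. In females 11 members were called without control 2 and 0 without long 1 (38 at an unadjusted p under 0.05). With generation as a factor in place of the straight shared slope, more members were called in both sexes, and the counts are given in the closing section on processing. With the 6 populations as the replicates, limma called 0 members in either sex, with 2 members in each at an unadjusted p under 0.05. With so few replicates limma can call few genes of any set. The share of all genes called in these fits is not given here, so they show nothing particular to the members.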

How the data were processed

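RNA of whole flies was made into polyA-selected, stranded libraries and sequenced. Per the labels and the study's methods, the authors aligned reads with STAR, counted uniquely mapped reads per gene with HTSeq and deposited raw counts, and they divided these by DESeq size factors to give the deposited normalized counts, a signal on 1 common scale. Versions of these tools and the strand setting are not given in the sources used here. Raw and normalized counts matched in every library (largest CV of their ratio 1.4e-09), and size factors ran from 0.74 to 2.47.

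Counts were tested with edgeR 4.0.16 (quasi-likelihood F-test, R 4.3.3), the deposited size factors as offsets, Benjamini-Hochberg adjustment over all genes tested and a call at an adjusted p under 0.001. Genes entered when at least 1 library of that sex passed the study's cutoff on low values. Sexes were compared over all libraries. Populations, generations and selection slopes were fitted in each sex, and sex differences as interactions added after the values were seen. Levels are log2(normalized count + 1). Positions and overlaps come from BDGP6.54. Tables were made with Python 3.11.15, pandas 2.3.3 and numpy 2.4.6, and figures with matplotlib 3.10.9. The sex test, and the population, generation and slope tests with the male libraries, were tried on simulated counts. Those libraries were drawn independently, without a shared population history. The female fits, the sex interactions and the alternatives were not simulated.

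Named genes were the 5 called with the largest fold change in each direction between the sexes, in each sex the 4 with the largest SD of population means, the 4 with the widest range over generations and up to 5 with the lowest p for selection slopes, and a fixed set of regulators, signalling, synapse and metabolic genes. Any other gene singled out in the text was named after its values were seen. The members, lists and named-gene rule were chosen with earlier results of these data known. Males and females of a population and generation came from 1 bottle and deviated together (correlations 0.14 to 0.72 over 78 bottles), so they are paired, and a fit with the bottle as a block left 89 members called. Alternatives were other scalings and filters, DESeq2 1.42.0, limma 3.58.1, summed pools, generation as a factor, other thresholds and a replicate block. Others were parts of the generations, and leaving out pools, populations, generations or doubted libraries.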

Additional observations from a re-analysis of the deposited data

Results flagged for a closer look

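In all, 34 groups of 6 populations were examined. Some held population means of single named genes, and the rest held the difference between the fourth chromosome and the other autosomes at a generation. In 3 groups, all of the latter kind, 1 population lay far from the other 5. Chance alone picks out about 1 in 20 such groups. In males of generation 8, short 1 was low at -0.47, against -0.18 for the nearest population, a gap of 0.64 of the whole range, and its pools were at -0.52 and -0.42. This gap rests on 1 library, since long 1 males of that generation had -0.40 in one pool and 0.38 in the pool with RNA of the other sex. In females of generation 0, control 1 was low at -0.27, against -0.03 for the nearest, a gap of 0.76 of the range, but 1 pool carried it, with the pools at -0.54 and 0.00. In females of generation 6, control 1 was again low at -0.33, against -0.12 for the nearest, a gap of 0.70 of the range, and again 1 pool carried it, with the pools at -0.60 and -0.06.

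Other results differed between males and females in a test of that difference with edgeR. Population means differed between the sexes for dpr7 (adjusted p = 4.2e-13), fd102C (adjusted p = 2.9e-21) and RhoGAP102A (adjusted p = 2.7e-13), each spread more widely in females. Most female libraries of fd102C lay below the cutoff on low values. The course over generations differed for CG32017 (adjusted p = 2.2e-05), CG11360 (adjusted p = 1.4e-45) and mGluR (adjusted p = 8.1e-23), each with the wider range in males, and for CR45126 (adjusted p = 7.6e-06), with the wider range in females. Selection slopes differed for fuss (adjusted p = 9.4e-05) and CG31999 (adjusted p = 0.00058), both called in females and not in males.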

How the results depend on the processing

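The counts of members called between the sexes (80 to 90 over all alternatives) and over generations (80 to 89 in males and 60 to 86 in females) stayed within 1.5 times their values, and 437 of 441 alternatives for the fold changes of named genes kept direction and call. With TMM factors mGluR turned to -0.08 and unc-13 to -0.38, and unc-13 was at -0.03 with total counts. The difference of the fourth chromosome from the other autosomes in the sex comparison was -0.54 with a filter on mean counts. It turned to 0.19 for genes past the cutoff in both sexes, and ran from -0.64 to -0.60 with single populations left out. The count of members called between populations was 54 in males. In separate fits it was 19 in generations 0 to 6, 35 in generations 7 to 13 and 33 with pools summed. It was 19 to 58 with a pool of every population or a single population left out. In females it was 45, and 28 with pools summed and 18 to 46 with pools or populations left out in these ways. The median SD of population means in males was 0.098 in generations 7 to 13 and 0.071 to 0.1 with a pool of every population left out. In females it was 0.113 in generations 0 to 6, 0.121 in generations 7 to 13 and 0.081 to 0.101 with a pool of every population left out. The ranges of this SD leave out no population. Values of the other autosomes under these settings are not given here, so they do not show whether the spread stayed no larger than there. Calls for selection slopes were the least stable. In males the count of 2 became 1 with TMM factors or total counts, 6 with generation as a factor and 6 at an adjusted p under 0.05. It was 0 to 3 with pools, populations or generations left out. In females the count of 5 became 28 with generation as a factor and 32 at an adjusted p under 0.05. It was 0 to 11 with pools, populations or generations left out. With pools summed and with limma on populations the count was 0 in both sexes by these tools. At an unadjusted p under 0.05, pools summed gave 4 in males and 19 in females, and limma 2 in each. The share of all genes called under these alternatives is not given here, so the changes in count show nothing particular to the members. Their cause was not tested.

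Deviations of populations of the same replicate number were correlated over 0.1 in 37 of 39 cases in males and 28 of 39 in females, but not in all, and the labels name nothing else that these populations share, so they were not taken as paired. With the replicate block, 38 members in males and 41 in females were called between populations. Over generations it was 88 and 81, and for selection slopes 1 in each sex. The block takes up the difference between replicate numbers. Its counts between populations therefore come from a different test and cannot be set against those without it. The share of all genes called with the block is not given here, so these counts show nothing particular to the members.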
